A study of Homo sapiens with 9 samples.

Results

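The enzymes of oxidative phosphorylation downstream of complex I were followed through 72 probe sets of 43 genes on Affymetrix U133 arrays. A probe set is a group of short probes that measures the transcripts of a gene. The array has 22283 probe sets, of which 19065 name a single gene (11963 genes in all). Taken were all those whose sole symbol was SDHA, SDHB, SDHC or SDHD, started with UQCR or ATP5, or was COX with a number after it. By complex, 7 probe sets of 3 genes fell to complex II, 9 of 6 genes to complex III, 20 of 13 genes to complex IV and 27 of 15 genes to complex V. A further 7 probe sets of 4 genes (COX10, COX11, COX15 and COX20) stood for factors that build complex IV, 1 for the ATP synthase inhibitor ATP5IF1 and 1 for the pseudogene ATP5MC2P1. SDHB was not analysed here, and 5 probe sets that name a gene of the rule together with another gene were left out. Of the 72 probe sets, 70 passed the filter on low signal. The exceptions were COX7A1 (204570_at), with signals of 4.97 to 10.0, and 1 of the 2 probe sets of SDHD (215652_at), with signals of 8.75 to 24.0.

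All RNA came from A673, a Ewing sarcoma cell line with the EWS/FLI fusion gene, so every result describes 1 line. EZH2 is the enzyme of Polycomb repressive complex 2 that methylates histone H3. EZH2 siRNA no.2 was given to 2 samples, an EZH2 siRNA whose title has no number to 1 sample (called the unnumbered siRNA here), and a control siRNA to 2 samples, each at 5 nM for 48 hours with a transfection reagent. TSA (trichostatin A), which blocks histone deacetylases, was given to 2 samples at 100 nM for 24 hours, and DMSO at 0.01%, the solvent control, to 2 samples for the same time. The titles of the groups of 2 number their samples as biological replicates 1 and 2. Nothing says what a number shares, so p-values measure the spread between these arrays. Each array measured the RNA of all cells of a sample together, and a lower share of cells with a transcript cannot be told apart from less of it per cell.

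The respiratory chain passes electrons along the inner mitochondrial membrane and pumps protons, and ATP synthase uses the proton gradient to make ATP. Complex II (succinate dehydrogenase) feeds electrons from the citric acid cycle into ubiquinone, complex III hands them to cytochrome c, complex IV (cytochrome c oxidase) reduces oxygen with them, and complex V is the ATP synthase. The catalytic core of complex IV, cytochrome b of complex III and part of the membrane sector of ATP synthase are encoded by mitochondrial DNA. All 43 genes here are nuclear, and most of them encode small proteins that surround such cores. Nuclear respiratory factor NRF1, the ETS factor GABP and YY1 are known regulators of many of these genes.

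EZH2 itself gave signals of 572 and 271 with siRNA no.2 (replicate 1 first, here and in every pair below), 681 with the unnumbered siRNA, 1130.1 and 1172 with the control siRNA, 1257 and 1055 with TSA, and 990.1 and 861 with DMSO. All 3 EZH2 siRNA arrays lay below every other array. Markers were read by the brightest probe set of each gene. The 7 measured Ewing sarcoma markers all passed the filter on low signal, with mean signals from 132 in PAX7 to 17676 in CD99. NKX2-2 had 3102 and FLI1 968. Of 12 measured markers of blood, epithelium, endothelium and muscle, 2 (CD3E and PECAM1) passed that filter, with mean signals of 99.9 and 112. The arrays had median signals of 125 to 159. Hybridisation controls, RNA added after labelling, read lower on the replicate 1 arrays and the unnumbered siRNA array (mean log2 of 9.89 to 10.23) than on the replicate 2 arrays (10.49 to 10.59). Principal component 1, with 25.5% of the variance, set the same arrays apart from the replicate 2 arrays. The number of arrays limits the precision of every value.

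By the median of each complex, nuclear subunits of complexes III, IV and V read lower with both treatments in replicate 1, and close to their controls in replicate 2. Single subunits departed from this, among them the core proteins of complex III and the alpha and beta subunits of complex V. No probe set passed the adjusted threshold of 0.05 in any comparison, which is 0% of the 13665 tested for siRNA no.2, the unnumbered siRNA, TSA, DMSO against control siRNA, and the difference between the siRNA no.2 and TSA effects. The smallest adjusted p of a member was 0.920 for siRNA no.2, 0.952 for the unnumbered siRNA and 1.00 for TSA. Differences below are therefore descriptions, in log2(signal + 25.1) units and treated minus control.

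With siRNA no.2, 60 of the 70 tested members had a negative difference from the control siRNA (85.7%), against 41.8% of all tested probe sets. Their median difference was -0.31, and that of all tested probe sets 0.071. In 32 members both siRNA no.2 arrays lay below both control arrays, and in 4 both lay above, where 12.8% and 22.4% of all tested probe sets did so. At an unadjusted limma p under 0.05, 1 member was lower (COX6A1) and 1 higher, against backgrounds of 1.71% and 3.56%. The higher one, COX4I1 213758_at, had both control siRNA signals under the filter's limit of 53.3 and passed the filter through its other arrays. The unnumbered siRNA gave a median of -0.37 against the mean of the control arrays (0.072 over all tested), with 58 of 70 negative. There 5 members were lower and 1 higher (the same COX4I1 probe set) at that unadjusted p, beside 2.2% and 2.81% of all tested, but the group is 1 array whose spread is taken from the other groups. Both siRNA comparisons share the control siRNA arrays. How many of all tested probe sets had all 3 EZH2 siRNA arrays below or above both control arrays was not counted. That order, where given below, is a description only. The siRNA no.2 count of 1 was unsteady: it was 0 without siRNA no.2 replicate 1 or without either DMSO array, 11 without siRNA no.2 replicate 2, and 10 without either TSA array, and the members' median without siRNA no.2 replicate 1 was -0.13. With the replicate number as a block the count was 10, and likewise 10 with the hybridisation controls as a block.

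With TSA, 60 of 70 members again had a negative difference from DMSO, against 44.7% of all tested probe sets, and the median was -0.31 (0.037 over all tested). Both TSA arrays lay below both DMSO arrays in 20 members and above them in 1, beside 12.1% and 16.1% of all tested. COX6B1 and 2 probe sets of COX5B were lower at an unadjusted p under 0.05 and 0 members higher, where the backgrounds were 1.17% and 1.24%. Between the control groups, DMSO minus control siRNA, the members' median was -0.027. Of the 70, 39 were below 0. Leaving out TSA replicate 1 turned the TSA median to 0.044 and left 0 members lower at that unadjusted p. Leaving out TSA replicate 2 gave a median of -0.54 with 30 members lower, and leaving out DMSO replicate 1 left 0. With the replicate number or the hybridisation controls as a block, 6 members were lower.

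The replicate numbers differed. With siRNA no.2 the members' median was -0.58 in replicate 1 and -0.10 in replicate 2, and with TSA it was -0.52 and -0.020. Over all tested probe sets the same medians were 0.11 and 0.041 with siRNA no.2, and 0.083 and -0.0018 with TSA. The unnumbered siRNA array, set against the replicate 1 control, gave -0.36. A log2 difference of -1 or lower, at least a halving on this scale, was seen in replicate 1 for 5 members with siRNA no.2 and 11 with TSA, where 1.27% and 2.38% of all tested probe sets reached it. In replicate 2 it was seen for 0 members with either treatment, beside 2.88% of all tested probe sets with siRNA no.2 and 1.3% with TSA, so that 0 of 70 is near the background.

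**Figure D1:**
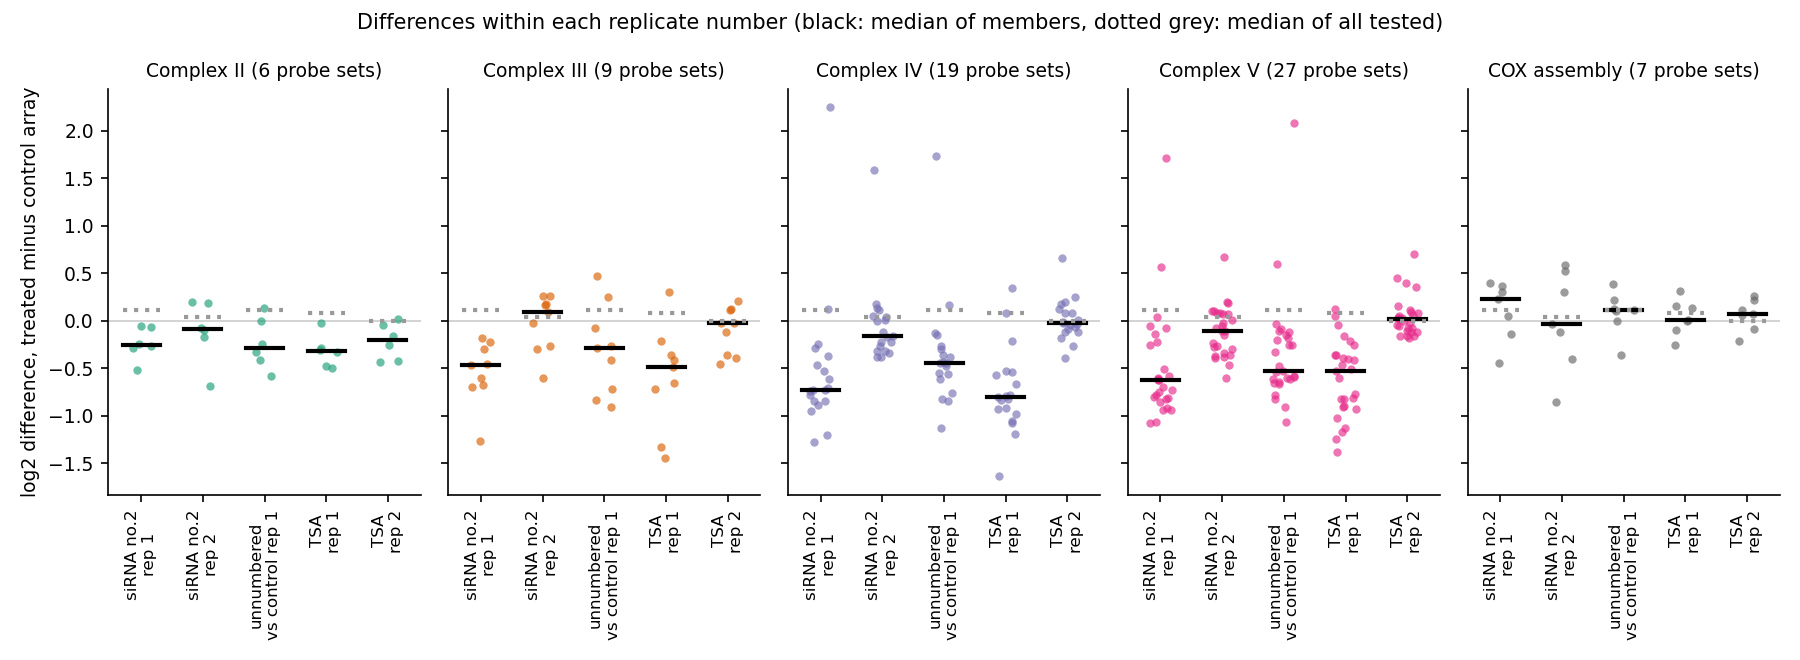
Log2 difference between a treated array and its control array (vertical axis) for every tested member, by complex, within each replicate number and for the unnumbered EZH2 siRNA against control replicate 1. Points are probe sets, black bars their median and dotted grey bars the median of all 13665 tested probe sets; in complexes III, IV and V the replicate 1 medians lie between -0.47 and -0.81, and the replicate 2 medians between -0.16 and 0.090.

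The same arrays stood out in the levels. In 32 of 70 members (45.7%) the 3 lowest of the 9 arrays were siRNA no.2 replicate 1, the unnumbered siRNA and TSA replicate 1, against 3.78% of all tested probe sets. Among probe sets with a mean signal of at least 2000, the share was 60.5% of the 43 members and 13.3% of all 1461 tested. TSA replicate 1 was the single lowest array for 36 of the 70, and for 13% of all tested probe sets. The median complex IV level above the array median was 4.08 and 4.48 with siRNA no.2, 3.996 with the unnumbered siRNA, and 4.75 and 4.72 with the control siRNA. It was 3.61 and 4.35 with TSA, against 4.63 and 4.60 with DMSO. All 5 treated arrays were below all 4 control arrays in complex IV, by the widest margin on the TSA replicate 1 array. In complex V the 3 lowest arrays were the same, and TSA replicate 2 lay among the controls. In complex III the DMSO replicate 1 array was the third from the bottom, below the unnumbered siRNA array.

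**Figure D2:**
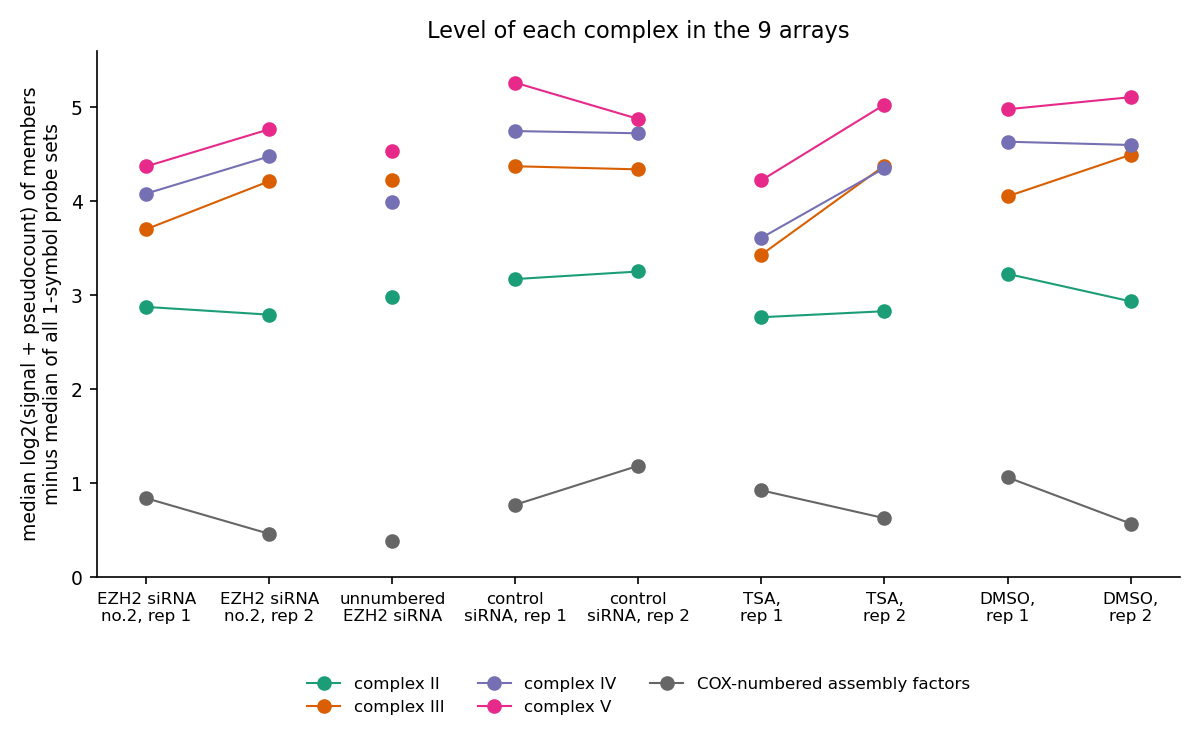
Median log2(signal + 25.1) of each complex minus the median of all single-gene probe sets of the array (vertical axis), in the 9 arrays (horizontal axis). Points are arrays, lines join replicates 1 and 2 of a group; complex IV was lowest with TSA replicate 1 (3.61) and highest with control siRNA replicate 1 (4.75).

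Most members are bright, and bright probe sets as a class read lower in replicate 1 of both treatments. Among the 1418 tested non-members with a mean signal of at least 2000, the replicate 1 median was -0.10 with siRNA no.2 and -0.12 with TSA. The 43 members that bright had medians of -0.62 and -0.77. Of these 43, 2.33% were at least halved in replicate 1 with siRNA no.2 and 20.9% with TSA, against 1.41% and 4.02% of the bright non-members. The replicate 1 controls also had the widest signal range, with highest signals of 39130.5 on the control siRNA array and 36325 on the DMSO array, against 27430.4 to 32525 on the other 7 arrays. Quantile normalization, which gives every array the same distribution, moved the bright non-members to 0.035 and -0.0095 in replicate 1. It gave the 43 bright members -0.47 with siRNA no.2 and -0.68 with TSA. All 70 members, at -0.58 and -0.52 before it, had -0.43 and -0.51 after it. The part of the hybridisation difference and of RNA quality in this pattern was not tested. The 3' to 5' signal ratio of ACTB, a sign of RNA integrity, was 1.04 and 1.24 with siRNA no.2, 1.26 with the unnumbered siRNA, and 1.03 and 1.28 with the control siRNA. It was 1.25 and 1.44 with TSA, against 1.14 and 1.29 with DMSO. The GAPDH ratio lay between 0.85 on the TSA replicate 1 array and 1.03 on the siRNA no.2 replicate 1 array.

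A model fitted to the 8 numbered arrays, with the 4 group means, the replicate number and 1 term for the treated arrays of replicate 1, tested the gap between replicate numbers for siRNA no.2 and TSA together. It was added after the gap had been seen. It estimates treated minus control in replicate 1 minus the same in replicate 2, and 0% of the 13665 probe sets passed the adjusted threshold. At an unadjusted limma p under 0.05, 26 members were lower in replicate 1 (37.1%) and 0 higher, against 4.05% and 4.79% of all tested probe sets. The share was 46.5% in the 43 bright members and 15.0% in the bright non-members. The members' median was -0.48, and that of all tested probe sets 0.074. The smallest adjusted p of a member was 0.400, for UQCRQ and ATP5F1E. Leaving out either TSA array took the count to 13.

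**Figure D3:**
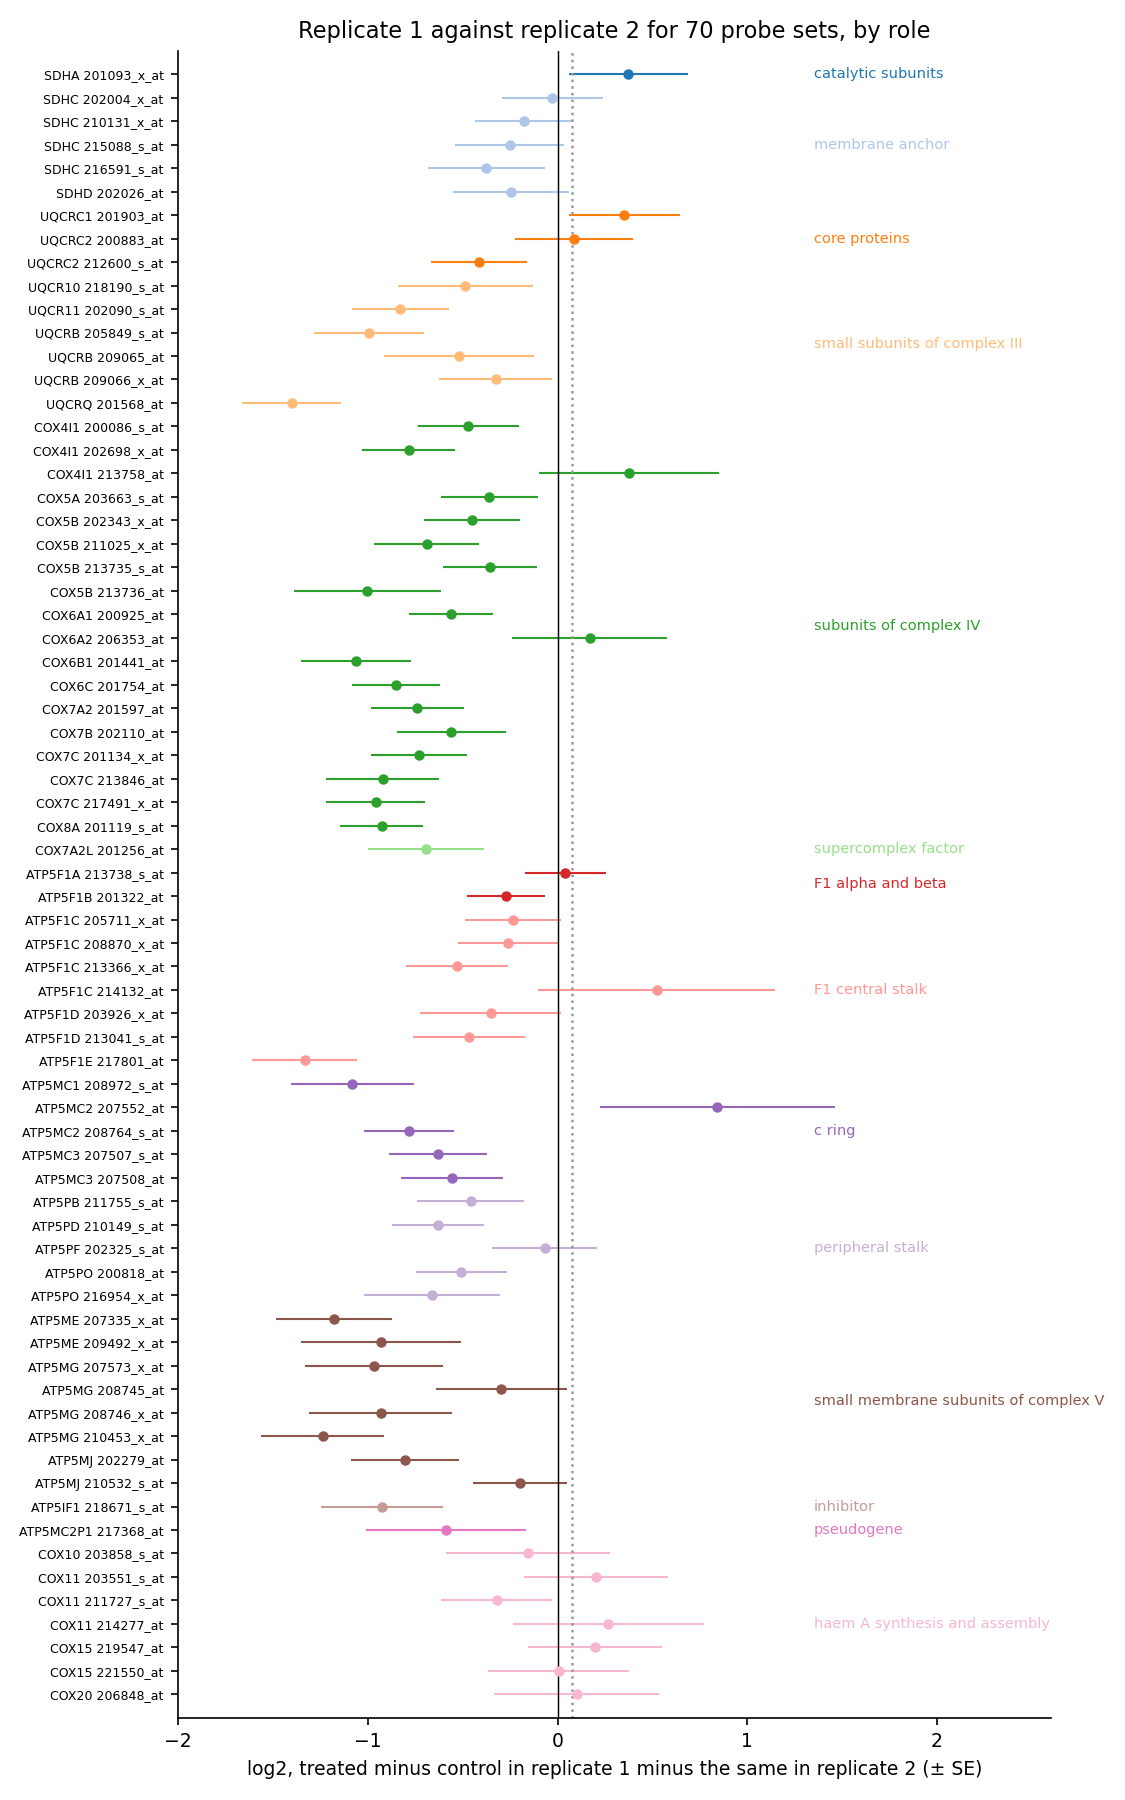
Treated minus control in replicate 1 minus the same in replicate 2 (log2, horizontal axis) for the 70 tested members, ordered by role. Points are estimates and bars their SE, and the dotted line is the median of all tested probe sets (0.074); the lowest estimates are those of UQCRQ at -1.40 and ATP5F1E at -1.33, and the assembly factors lie between -0.32 and 0.27.

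By its median, complex II had the smallest gap between replicate numbers among complexes II to V. Its 6 tested probe sets had median differences of -0.26 and -0.089 with siRNA no.2, and -0.32 and -0.21 with TSA, and 0 of them reached an unadjusted p under 0.05 in either comparison or in the replicate term. With 6 probe sets that count is near the background, which was 1.71% lower and 3.56% higher with siRNA no.2, 1.17% and 1.24% with TSA, and 4.05% and 4.79% in the replicate term. SDHA (201093_x_at), the flavoprotein that oxidises succinate, had signals of 1345 and 1085 with siRNA no.2, 1401 with the unnumbered siRNA, and 1401 and 1762 with the control siRNA. Its signals were 1408 and 1063 with TSA, against 1752 and 1438 with DMSO. Both siRNA no.2 arrays lay below both control arrays, as did both TSA arrays against DMSO, and here the wider gap was in replicate 2. The difference was -0.37 ± 0.26 (SE, limma adjusted p = 0.934) with siRNA no.2.

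SDHC and SDHD anchor the complex in the membrane and help bind ubiquinone. The 4 SDHC probe sets differed by -0.23 to 0.066 with siRNA no.2 and by -0.45 to -0.092 with TSA. SDHC 216591_s_at had signals of 986 and 885 with TSA, against 1380.3 and 1203 with DMSO, with no overlap between the groups and a difference of -0.45 ± 0.26 (SE). SDHC 215088_s_at was the only one of the 4 with a positive siRNA no.2 difference, at 0.066 ± 0.23 (SE). The tested SDHD probe set (202026_at) gave 1977 and 2157 with siRNA no.2, 1972 with the unnumbered siRNA, and 2347 and 2308 with the control siRNA. With TSA it gave 1335 and 2123, against 1683 and 2098 with DMSO, so the TSA and DMSO arrays overlapped.

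In complex III the 6 probe sets of small subunits had replicate 1 medians of -0.64 with siRNA no.2 and -0.69 with TSA, and replicate 2 medians of 0.13 and 0.046. UQCRQ (201568_at), a small subunit near the ubiquinone site, had signals of 2405 and 5036 with siRNA no.2, 3524 with the unnumbered siRNA, and 5820.3 and 4729 with the control siRNA. With TSA and DMSO the signals were 2066 and 5494, against 5243 and 5067. In replicate 1 both treated arrays lay far below their controls, and in replicate 2 both lay slightly above. Its replicate term was -1.40 ± 0.26 (SE, limma adjusted p = 0.400), while the siRNA no.2 difference over both replicates was -0.59 ± 0.43 (SE). Without TSA replicate 1 the TSA difference of -0.61 turned to 0.092.

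UQCRB, which binds near the ubiquinone pocket, is measured by 3 probe sets. UQCRB 205849_s_at had signals of 2132 and 6029 with TSA, against 5867 and 6131 with DMSO, so the TSA replicate 1 array stood far below the other 3, which lay close together. Its replicate term was -0.99 ± 0.29 (SE, limma adjusted p = 0.450), and without TSA replicate 1 its TSA difference of -0.74 turned to 0.0075. The dimmer UQCRB 209065_at and the cross-matching 209066_x_at also read lower in replicate 1, at -0.21 and -0.72 with TSA, and gave 0.20 and -0.45 in replicate 2. UQCR11 and UQCR10 are small membrane subunits. UQCR11 (202090_s_at) had signals of 2102 and 4273 with siRNA no.2, 1813 with the unnumbered siRNA, and 3424 and 3769 with the control siRNA. The siRNA no.2 array of replicate 1 and the unnumbered array were low, and the siRNA no.2 array of replicate 2 was the highest of the 5. UQCR10 (218190_s_at) had the unnumbered siRNA at 3812 and siRNA no.2 at 4501 and 5856, all below the control siRNA at 6836 and 5936. Its siRNA no.2 difference was -0.60 in replicate 1 and -0.020 in replicate 2. With TSA it had 3233 and 7090, against 4322 and 7212 with DMSO, so DMSO replicate 1 also lay below both siRNA no.2 arrays.

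The core proteins UQCRC1 and UQCRC2 are large matrix subunits that support the complex. Their 3 probe sets had replicate 1 medians of -0.22 with siRNA no.2 and -0.36 with TSA, and replicate 2 medians of -0.27 and -0.36. The replicate terms of the 2 roles overlapped, at -0.41 to 0.35 in the core proteins and -1.40 to -0.33 in the small subunits, and their difference was not tested. UQCRC2 200883_at had signals of 1864 and 1977 with siRNA no.2, 2107 with the unnumbered siRNA, and 2587 and 3008 with the control siRNA. Both siRNA no.2 arrays and the unnumbered array lay below both control arrays, and the difference was -0.53 ± 0.25 (SE, limma adjusted p = 0.920). The other UQCRC2 probe set (212600_s_at) gave 0.040 ± 0.27 (SE) with siRNA no.2, so the 2 probe sets of the gene differed by 0.57. UQCRC1 (201903_at) gave -0.25 with siRNA no.2 and -0.029 with TSA.

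Complex IV had the lowest medians of complexes II to V with both treatments in replicate 1, -0.73 with siRNA no.2 and -0.81 with TSA, against -0.16 and -0.024 in replicate 2. In the replicate term 12 of its 19 tested probe sets were lower at an unadjusted p under 0.05, beside 4.05% of all tested probe sets and 15.0% of the bright non-members. COX6B1 (201441_at), a subunit on the side where cytochrome c docks, had signals of 3001 and 3895 with siRNA no.2, 2649 with the unnumbered siRNA, and 5815 and 4951 with the control siRNA. All 3 EZH2 siRNA arrays lay below both control arrays. With TSA the signals were 1883 and 3801, against 5923 and 4138 with DMSO, again without overlap. The TSA difference was -0.88 ± 0.33 (SE, limma adjusted p = 1.00), made up of -1.64 in replicate 1 and -0.12 in replicate 2. The siRNA no.2 difference was -0.65 ± 0.33 (SE).

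COX5B, a matrix-side subunit that binds zinc, has 4 probe sets. COX5B 202343_x_at had signals of 2404 and 3395 with TSA, against 4291 and 4100.0 with DMSO, with both TSA arrays below both DMSO arrays. Its TSA difference was -0.55 ± 0.24 (SE, limma adjusted p = 1.00), and that of 211025_x_at was -0.69 ± 0.28 (SE, limma adjusted p = 1.00). COX5B 213735_s_at gave -0.59 ± 0.28 (SE), but the dim 213736_at gave 0.064 ± 0.47 (SE), with 145 and 331 with TSA, against 221 and 201 with DMSO. The 4 probe sets therefore differed by up to 0.75 in the TSA comparison.

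COX6A1 is the widely expressed form of a dimer-stabilising subunit, and COX6A2 its heart and muscle form. COX6A1 (200925_at) had signals of 5610.2 and 7621 with siRNA no.2, 5911 with the unnumbered siRNA, and 10074 and 8934 with the control siRNA. All 3 EZH2 siRNA arrays lay below both control arrays, and the siRNA no.2 difference was -0.54 ± 0.24 (SE, limma adjusted p = 0.920). COX6A2 (206353_at) was near 132 on average and gave -0.10 ± 0.33 (SE) with siRNA no.2 and 0.14 ± 0.33 (SE) with TSA. COX7A1, the muscle form of another subunit, was below the filter. Its widely expressed form COX7A2 (201597_at) had signals of 3281 and 5372 with siRNA no.2, 4432 with the unnumbered siRNA, and 5449 and 5838 with the control siRNA, with the siRNA no.2 array of replicate 1 lowest.

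COX7C, a small membrane subunit, was measured by 3 probe sets. COX7C 213846_at had signals of 431 and 946 with siRNA no.2, 694 with the unnumbered siRNA, and 1078 and 1183 with the control siRNA. Both siRNA no.2 arrays lay below both controls, and the replicate 1 difference was -1.27 against -0.31 in replicate 2. The replicate terms of the 3 probe sets were -0.73, -0.92 and -0.96. COX8A (201119_s_at), a small membrane subunit, had signals of 7519 and 13916 with TSA, against 14844 and 13872 with DMSO. TSA replicate 1 stood apart from the other 3 arrays, which lay close together, and the replicate term was -0.93 ± 0.22 (SE, limma adjusted p = 0.429). COX6C, COX7B and COX5A had replicate terms of -0.85, -0.56 and -0.36. COX7A2L (201256_at), which joins complexes III and IV into supercomplexes, gave -1.05 with TSA and -0.24 with siRNA no.2 in replicate 1.

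COX4I1 is the first nuclear subunit to join the core of complex IV and takes part in its regulation by ATP. COX4I1 202698_x_at had signals of 4789.7 and 5973 with siRNA no.2, 5379.7 with the unnumbered siRNA, and 7948 and 6958 with the control siRNA, with all 3 EZH2 siRNA arrays below both controls and a siRNA no.2 difference of -0.47 ± 0.27 (SE). COX4I1 200086_s_at gave -0.58 ± 0.27 (SE, limma adjusted p = 0.920). The dim COX4I1 213758_at had 155 and 129 with siRNA no.2, 101 with the unnumbered siRNA, and 12.9 and 26.3 with the control siRNA. Its EZH2 siRNA arrays thus lay above both control arrays, opposite to the other probe sets. With TSA it had 109 and 108, against 80.3 and 86.2 with DMSO, and the control siRNA arrays were the low ones among all 9. Both control siRNA signals were under the filter's limit of 53.3 and 1 was below the pseudocount of 25.1, so no difference is given for this probe set.

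**Figure D4:**
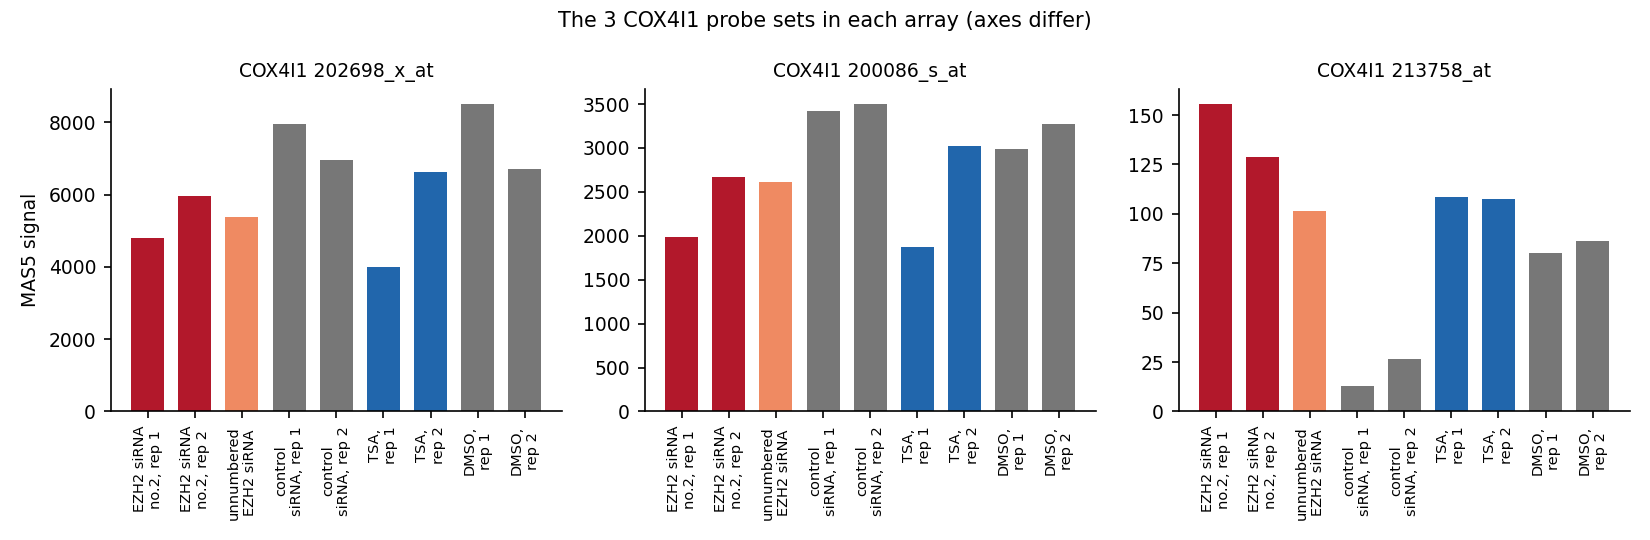
MAS5 signal (vertical axis, from 0 and with its own scale in each panel) of the 3 COX4I1 probe sets in the 9 arrays (horizontal axis), 1 bar per array. In 202698_x_at and 200086_s_at the EZH2 siRNA arrays lie below the control siRNA arrays, and in 213758_at they lie above, at 155, 129 and 101 against 12.9 and 26.3.

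Complex V consists of the F1 head that makes ATP, a central stalk that turns inside it, a ring of c subunits driven by protons, a peripheral stalk that holds the head still, and small membrane subunits around the ring. The head subunits were close to their controls. ATP5F1B (201322_at), the catalytic beta subunit, had signals of 9786 and 13434 with siRNA no.2, 10568 with the unnumbered siRNA, and 11463 and 12535 with the control siRNA. Its signals were 9962 and 12875 with TSA, against 11138 and 12408 with DMSO. The groups overlapped in both comparisons, with differences of -0.064 ± 0.23 (SE) for siRNA no.2 and -0.054 ± 0.23 (SE) for TSA. ATP5F1A (213738_s_at), the alpha subunit, gave -0.068 and -0.0041, and a replicate term of 0.040 ± 0.21 (SE). Both probe sets are bright, with mean signals of 9809 for ATP5F1A and 11574 for ATP5F1B.

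In the central stalk ATP5F1E (217801_at), the epsilon subunit, had signals of 2509.6 and 5304 with siRNA no.2, 3359.9 with the unnumbered siRNA, and 4846 and 4638 with the control siRNA. Its signals were 1995 and 6181 with TSA, against 3559 and 3779 with DMSO. Replicate 1 was low with both treatments, and in replicate 2 both treated arrays were above their controls. The replicate term was -1.33 ± 0.28 (SE, limma adjusted p = 0.400). ATP5F1D (213041_s_at), the delta subunit, had signals of 874 and 1195 with siRNA no.2, 842 with the unnumbered siRNA, and 1606 and 1546 with the control siRNA. The controls lay above all 3 EZH2 siRNA arrays, and the difference was -0.61 ± 0.28 (SE, limma adjusted p = 0.920). The other ATP5F1D probe set (203926_x_at) gave -0.20 ± 0.32 (SE) with siRNA no.2, with -0.061 in replicate 1 and -0.34 in replicate 2. For the gamma subunit ATP5F1C, the 3 bright probe sets gave -0.37 to -0.27 with siRNA no.2, and the dim 214132_at gave 0.049 ± 0.67 (SE).

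The c subunit is encoded by ATP5MC1, ATP5MC2 and ATP5MC3, which give the same mature protein. ATP5MC1 (208972_s_at) had signals of 1057 and 1415 with siRNA no.2, 1480.0 with the unnumbered siRNA, and 2248 and 1858 with the control siRNA. Again all 3 EZH2 siRNA arrays were below both controls, with a siRNA no.2 difference of -0.73 ± 0.35 (SE, limma adjusted p = 0.920). Its signals were 809 and 1782 with TSA, against 1797 and 1388 with DMSO, so TSA replicate 2 overlapped DMSO while TSA replicate 1 lay far below. ATP5MC2 208764_s_at gave -0.34 ± 0.27 (SE) with siRNA no.2. The dim ATP5MC2 207552_at had 82.4 and 57.8 with siRNA no.2, 114 with the unnumbered siRNA, and 7.66 and 74.8 with the control siRNA, with the control array of replicate 1 far below the filter's limit. The 2 ATP5MC3 probe sets gave -0.36 and -0.40 with siRNA no.2, and -0.17 and -0.43 with TSA.

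The small membrane subunits ATP5ME, ATP5MG and ATP5MJ had a median replicate term of -0.93 over 8 probe sets, from -1.24 in ATP5MG 210453_x_at to -0.20 in ATP5MJ 210532_s_at. ATP5ME and ATP5MG take part in holding ATP synthase dimers together. ATP5ME (207335_x_at) had signals of 525 and 986 with siRNA no.2, 748 with the unnumbered siRNA, and 1133 and 984 with the control siRNA. Its signals were 481 and 1109 with TSA, against 1176 and 1083 with DMSO. In replicate 2 both treated arrays were level with their controls, at 0.0033 with siRNA no.2 and 0.033 with TSA, while replicate 1 gave -1.07 and -1.25. ATP5MG 210453_x_at gave -1.38 in replicate 1 and 0.059 in replicate 2 with TSA, whereas ATP5MG 208745_at gave -0.51 and -0.12. ATP5MJ 202279_at had siRNA no.2 signals of 1264 and 1869, against 2422 and 2428 with the control siRNA. Those groups did not overlap, and the difference was -0.65 ± 0.31 (SE).

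The peripheral stalk was mixed. ATP5PB (211755_s_at), its b subunit, had signals of 8208 and 8739 with siRNA no.2, 7408 with the unnumbered siRNA, and 7978 and 5474 with the control siRNA. Both siRNA no.2 arrays lay above both controls, with a difference of 0.36 ± 0.25 (SE), while TSA gave -0.12 ± 0.25 (SE). ATP5PD (210149_s_at), the d subunit, gave -0.61 ± 0.31 (SE) with siRNA no.2, without overlap between the groups. ATP5PF, the coupling factor, and ATP5PO, the subunit that ties the stalk to the head and confers oligomycin sensitivity, gave -0.28 and -0.45 in their brightest probe sets. ATP5IF1 (218671_s_at), a protein that stops ATP synthase from running backwards, had siRNA no.2 signals of 652 and 668, against 1230.1 and 756 with the control siRNA. Its replicate term was -0.93 ± 0.32 (SE, limma adjusted p = 0.483). The pseudogene ATP5MC2P1, whose probes may also match its parent gene, gave -0.37 and 0.015.

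**Figure D5:**
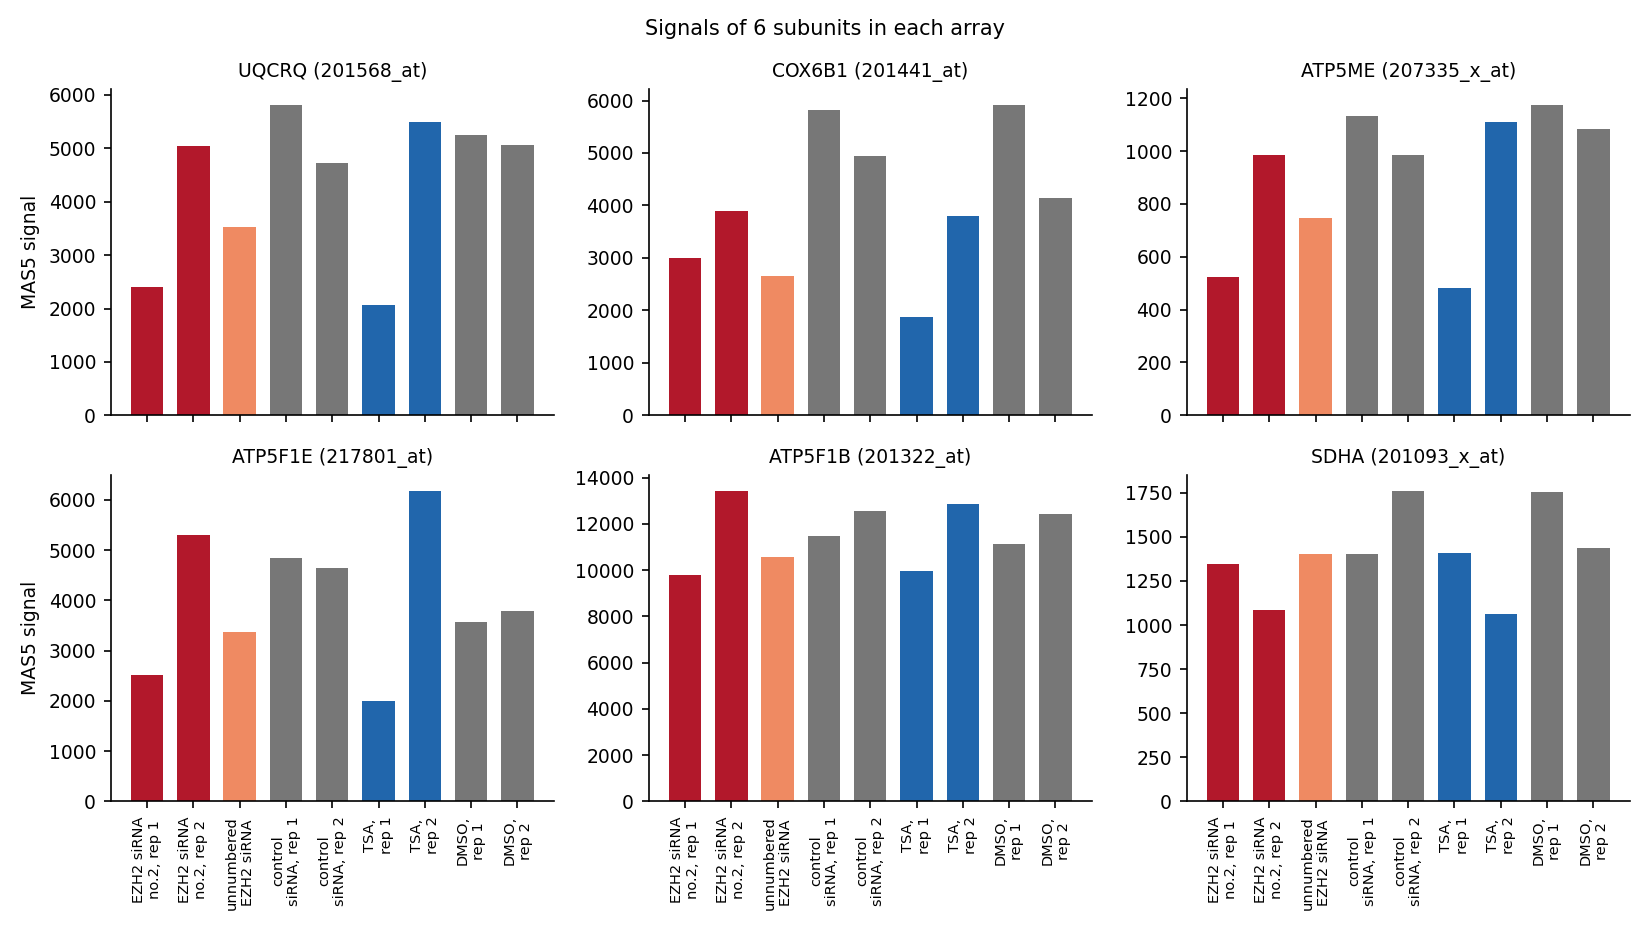
MAS5 signal (vertical axis, from 0 and with its own scale in each panel) of 6 probe sets in each of the 9 arrays (horizontal axis), 1 bar per array. UQCRQ, COX6B1, ATP5ME and ATP5F1E are low with siRNA no.2 replicate 1 and TSA replicate 1. ATP5F1B has a narrow range of 9786 to 13434, and SDHA is lowest in the treated arrays of replicate 2. UQCRQ had 2405 with siRNA no.2 and 2066 with TSA in replicate 1, against 5820.3 and 5243 in the controls.

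The factors that build complex IV were all dimmer than most of its subunits, with mean signals of 67.0 to 1910.5. COX10 and COX15 make haem A, and COX11 delivers copper to the core. Their 7 probe sets, with that of COX20, had replicate 1 medians of 0.23 with siRNA no.2 and 0.0080 with TSA, and 0 were lower at an unadjusted p under 0.05 in the replicate term, where 4.05% of all tested probe sets were. The 27 members with a mean signal under 2000, which include these 7, had medians of -0.14 and -0.33. The difference between assembly factors and subunits was not tested, and brightness moves with it. COX10 (203858_s_at) had signals of 848 and 926 with siRNA no.2, 762 with the unnumbered siRNA, and 650.2 and 609 with the control siRNA. All 3 EZH2 siRNA arrays lay above both controls, with a siRNA no.2 difference of 0.48 ± 0.38 (SE, limma adjusted p = 0.941). COX15 219547_at likewise had 723 and 683 with siRNA no.2, against 543 and 469 with the control siRNA. Its signals were 1096 and 592 with TSA, against 878 and 689 with DMSO, so both control siRNA arrays lay below every other array. DMSO minus control siRNA was 0.60 ± 0.31 (SE), and the siRNA no.2 difference was 0.46 ± 0.31 (SE). COX11 203551_s_at gave -0.50 ± 0.32 (SE), with -0.14 in replicate 1 and -0.86 in replicate 2. The COX20 probe set was designed on a transcript that RefSeq gives to HOXA7, so its values of 0.14 and 0.20 may not be COX20's. In the TSA comparison the signs of COX20 and of COX11 214277_at and 203551_s_at each turned when 1 array was left out.

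Probe sets whose name ends in x_at can match several genes, which matters for families with many pseudogenes. The 19 such members had replicate 1 medians of -0.62 with siRNA no.2 and -0.72 with TSA, and the 28 members with the plain ending at had -0.46 and -0.46. The 23 with the ending s_at, which match transcripts of 1 gene or a close family, had -0.52 and -0.47.

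Across the 70 members, the replicate 1 differences of siRNA no.2 and of TSA had a Pearson correlation of 0.63 and a Spearman correlation of 0.73, and those of replicate 2 had 0.15 and 0.13. Over all tested probe sets the replicate 1 Pearson value was 0.35, and over those with a mean signal of at least 2000 it was 0.67. These are descriptions across probe sets, which share arrays and are not independent.

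Other mitochondrial gene lists set the members beside their neighbours in the pathway. Apart from complex I, each gene of these lists and of the nuclear regulators was read by its brightest probe set only. Complex I, which takes electrons from NADH, had 33 tested probe sets with replicate 1 medians of -0.60 with siRNA no.2 and -0.79 with TSA, against -0.11 and -0.018 in replicate 2. In the replicate term 11 of the 33 were lower at an unadjusted p under 0.05 (33.3%), close to the members' 37.1%. At least a halving in replicate 1 was seen in 7 of the 33 with siRNA no.2 (21.2%) and 8 with TSA (24.2%). The members' shares were 7.14% and 15.7%. The 14 citric acid cycle and pyruvate dehydrogenase genes had replicate 1 medians of -0.10 and -0.12, and 0 of 14 were lower or higher at an unadjusted p under 0.05 in either comparison, a count near the backgrounds of 1.71% and 3.56% with siRNA no.2 and 1.17% and 1.24% with TSA. The 7 carriers and pores gave -0.24 and -0.47. With siRNA no.2, 1 of the 7 was lower at an unadjusted limma p under 0.05 and 0 higher, beside the same 1.71% and 3.56%. That was the ADP/ATP carrier SLC25A4 (-0.68 ± 0.30, SE), with a mean signal of 363. The brighter ADP/ATP carrier SLC25A5, with a mean signal of 8116, gave -0.055 ± 0.25 (SE). The 15 genes for cytochrome c, cytochrome c1 and assembly had a siRNA no.2 median of -0.024, with 8 negative and 7 positive. Cytochrome c1 (CYC1) is a complex III subunit whose symbol falls outside the rule, so it was not counted with complex III above. CYC1 gave 0.13 in replicate 1 and -0.18 in replicate 2 with siRNA no.2. With TSA it gave -0.16 and -0.15, and its replicate term was 0.14 ± 0.22 (SE). Of the 15 genes, 1 was lower with siRNA no.2 at an unadjusted limma p under 0.05 and 0 higher, against those backgrounds of 1.71% and 3.56%. That was TMEM70, which helps assemble ATP synthase (-0.60 ± 0.27, SE).

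The 11 tested nuclear regulators had medians of 0.044 with siRNA no.2 and 0.16 with TSA. NRF1 gave -0.10 ± 0.26 (SE) and GABPA, the DNA-binding part of GABP, -0.047 ± 0.39 (SE) with siRNA no.2. YY1, a zinc finger factor that also works with the coactivator PGC-1alpha, was higher with siRNA no.2 at 0.70 ± 0.22 (SE, limma adjusted p = 0.920). PPARGC1A, the gene of that coactivator, was below the filter with a mean signal of 14.3.

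The promoters of COX4I1, COX6B1, UQCRQ and ATP5ME are shown because their probe sets carry the contrasts described above. Each runs from 250 bases before the RefSeq transcription start to 50 bases after it (RefSeq, GRCh38.p14), and capitals mark matches to the cores named below. COX4I1 lies on the plus strand of chr16:85799445-85799744, COX6B1 on the plus strand of chr19:35648073-35648372, UQCRQ on the plus strand of chr5:132866392-132866691 and ATP5ME on the minus strand of chr4:674227-674526.
COX4I1: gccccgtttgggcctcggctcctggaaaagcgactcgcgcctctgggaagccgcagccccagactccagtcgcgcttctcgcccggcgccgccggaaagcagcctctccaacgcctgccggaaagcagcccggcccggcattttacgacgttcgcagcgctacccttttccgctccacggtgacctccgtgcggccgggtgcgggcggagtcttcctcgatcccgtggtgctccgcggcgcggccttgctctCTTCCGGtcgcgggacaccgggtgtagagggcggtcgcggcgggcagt
COX6B1: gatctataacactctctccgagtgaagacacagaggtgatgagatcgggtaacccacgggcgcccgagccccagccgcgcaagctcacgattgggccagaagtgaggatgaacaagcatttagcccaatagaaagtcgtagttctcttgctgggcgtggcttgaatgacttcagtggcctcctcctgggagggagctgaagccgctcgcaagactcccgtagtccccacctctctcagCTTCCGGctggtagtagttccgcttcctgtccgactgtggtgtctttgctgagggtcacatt
UQCRQ: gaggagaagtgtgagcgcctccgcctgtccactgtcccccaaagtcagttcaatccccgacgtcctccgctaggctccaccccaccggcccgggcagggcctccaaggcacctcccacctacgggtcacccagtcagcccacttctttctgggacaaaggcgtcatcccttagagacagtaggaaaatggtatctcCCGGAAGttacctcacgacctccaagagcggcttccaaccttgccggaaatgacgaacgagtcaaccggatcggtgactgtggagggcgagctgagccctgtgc
ATP5ME: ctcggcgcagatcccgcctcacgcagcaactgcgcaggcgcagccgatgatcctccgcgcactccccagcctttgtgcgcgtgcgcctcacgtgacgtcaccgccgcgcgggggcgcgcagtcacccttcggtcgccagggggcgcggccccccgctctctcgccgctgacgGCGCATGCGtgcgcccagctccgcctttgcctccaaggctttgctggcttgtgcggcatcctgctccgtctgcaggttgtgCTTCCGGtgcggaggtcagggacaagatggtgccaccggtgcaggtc

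Promoter entries were matched for 34 of the 43 genes, and cores were searched on both strands. The ETS core CCGGAAG, recognised by GABP and other ETS proteins including FLI1, was present in 16 of the 34 (47.1%), against 10.3% of 35116 promoters in the table and 17.8% of the 9562 with a gene on the array. The NRF1 core GCGCATGCG was present in 6 (17.6%), against 1.92% and 3.48%. The YY1 core AAGATGGCG was present in 3 (8.82%), against 1.75% and 3.95%. With the start counted as 0, the first base of the ETS match lay at 2 in COX4I1, -12 in COX6B1 and 3 in ATP5ME on the opposite strand, and at -54 in UQCRQ on the gene's own strand. ATP5ME also had an NRF1 core at -78 on its own strand. The promoters shown all hold an ETS core, whereas those of ATP5F1E, with a replicate term of -1.33, and of COX7C hold none of these cores. Whether a core goes with the differences between arrays was not tested. A match is a run of letters and not a measured binding site.

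The COX4I1 window overlaps that of EMC8, a subunit of a membrane protein insertase transcribed the other way, by 250 bases. EMC8 (218057_x_at) had signals of 1213 and 1193 with siRNA no.2, 943 with the unnumbered siRNA, and 1457 and 1660.0 with the control siRNA. All 3 EZH2 siRNA arrays lay below both controls, as in COX4I1 202698_x_at and 200086_s_at, and the siRNA no.2 difference was -0.36 ± 0.29 (SE). By replicate it was -0.26 and -0.47 in EMC8, against -0.73 and -0.22 in 202698_x_at and -0.78 and -0.39 in 200086_s_at. EMC8 had 776 and 1173 with TSA, against 1565 and 1052 with DMSO, so DMSO replicate 2 also lay below both siRNA no.2 arrays. Whether the 2 genes change together was not tested.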

How the data were processed

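Single-channel Affymetrix U133 arrays measured RNA in 9 samples. The deposited values are MAS5 signal intensities, 1 per probe set, made by the authors with MAS5 per the submitters' processing notes, and their trimmed mean was near 500.2 on every array. The version and settings of MAS5 are not given in the sources used here. Detection calls were not used here. MAS5 scales each array by a single factor, so differences in the spread of intensities between arrays remain in the values.

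A pseudocount of 25.1, the value at the 20th percentile of the whole table, was added to each intensity before log2. Probe sets with 1 gene symbol in the platform annotation and a mean signal of at least 53.3 (the 30th percentile of non-control probe sets) were tested, which left 13665. The 5 group means were fitted over the 9 arrays together (limma 3.58.1, R 4.3.3) with 4 residual degrees of freedom, moderation along an intensity trend, Benjamini-Hochberg adjustment over all 13665 and a threshold of 0.05. The unnumbered siRNA has 1 array and is assumed to vary like the other groups. No exact permutation test is given for single values, because 2 arrays against 2 cannot go below p = 0.333. The code was tested on simulated data.

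Members and gene lists were chosen with earlier results of these data known. Named were all of complex II; per complex, the probe sets with the smallest p in each comparison; the brightest; genes whose probe sets disagree; paralogues; and the gene lists. The replicate term, the brightness limit of 2000, the values within replicates after quantile normalization and the genes named from the replicate term were chosen after seeing the data. Alternatives were the pseudocount, the filter, 1 probe set per gene, the scaling, the variance trend, the arrays fitted, 2 blocks and leaving out each array. A split by protein length was planned and not run.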

Additional observations from a re-analysis of the deposited data

How the results depend on the processing

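The count of 0 probe sets past the adjusted threshold held in every alternative for siRNA no.2, TSA, DMSO and the difference of the siRNA no.2 and TSA effects. For the unnumbered siRNA it became 1 when only the groups of the comparison were fitted (ARTN, not a member). The replicate term passed 0 to 2 probe sets with 1 array left out (HSPE1 and FN1, not members). The members' median for siRNA no.2 stayed below 0 (-0.50 to -0.13 with 1 array left out), and that for TSA ran between -0.54 and 0.044, reversed at 0.0437 without TSA replicate 1.

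The number of members lower at an unadjusted p under 0.05 with siRNA no.2 (1) was 0 without the variance trend, 9 with a common median on every array, 0 with the filter at the 50th percentile, 2 with no filter, 8 with only the groups of the comparison, 0 with the pseudocount at the 40th percentile, and 0 to 11 with 1 array left out. For TSA (3) it was 1 with 1 probe set per gene, 1 without the trend, 1 with only the groups of the comparison, and 0 to 30 with 1 array left out. With the replicate block the counts were 10 for siRNA no.2 and 6 for TSA, and with the hybridisation control block also 10 and 6. Same-numbered arrays deviated together with r between 0.098 and 0.41, but each comparison has only 2 pairs, so a shared number does not establish a pairing.

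The median replicate term (-0.48) was -0.54 with 1 probe set per gene, -0.59 with a common median, -0.51 with the filter at the 50th percentile, -0.47 with no filter, -0.45 and -0.48 with the pseudocount at the 40th and 5th percentiles, -0.39 after quantile normalization, and -0.62 to -0.33 with 1 array left out, where 13 to 26 members were lower at that p. Of 586 alternatives for 30 named probe set results, 8 reversed, all with 1 array left out. With 1 array left out, TSA values ran between -0.30 and 0.10 for COX11 203551_s_at, -0.19 and 0.41 for COX11 214277_at, -0.17 and 0.56 for COX20, -1.48 and 0.0075 for UQCRB 205849_s_at and -1.31 and 0.092 for UQCRQ, and siRNA no.2 values between -0.35 and 0.0043 for SDHC 202004_x_at. The cause of these shifts was not tested. With 2 arrays a group, dim probe sets such as COX4I1 213758_at and ATP5MC2 207552_at have values that depend on the pseudocount.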

Other observations

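Outside the rule, 5 probe sets name a respiratory gene together with another gene, and they were neither tested nor counted. The probe set shared by UQCRH, the hinge protein of complex III, and its copy UQCRHL (202233_s_at) had signals of 4288 and 8168 with siRNA no.2, 5895 with the unnumbered siRNA, and 7249 and 7882 with the control siRNA. Its signals were 3599.6 and 7346 with TSA, against 7219 and 7069 with DMSO. ATP5MF, a small membrane subunit of ATP synthase, shares 202961_s_at with ARMC2-AS1 and had 3359 and 6669.7 with TSA, against 6764 and 6223 with DMSO. COX17, a copper chaperone for complex IV, shares 203880_at with POPDC2 and had 321 and 887 with TSA, against 798 and 1015 with DMSO. In these 3 the TSA array of replicate 1 was the lowest of all 9. The probe set of COX16 and its read-through transcript (217645_at) had 207 and 219 with siRNA no.2, 236 with the unnumbered siRNA, and 273 and 329 with the control siRNA, with all 3 EZH2 siRNA arrays below both controls. That of PTCD1 and its read-through transcript with ATP5MF (218956_s_at) had 341 and 375 with TSA, against 379 and 356 with DMSO.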
